A study of Mus musculus with 15 samples.

Results

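The genes described here are 34 enzymes and regulators of sterol and fatty acid synthesis, chosen as the rows of the deposited table whose symbol is on a list set by gene name, out of 55335 genes in all. The list holds 18 enzymes of the path from acetyl-CoA to cholesterol, 5 genes of the machinery that senses sterols and drives transcription, the sterol carrier Stard4, 3 genes that make fatty acids, 3 elongases and 4 desaturases. Each symbol had 1 row in the table, and all 34 genes were among the 11419 tested genes, those that averaged 1 FPKM or more over the 15 samples. FPKM scales the fragments of a gene by its transcript length and by the size of the library, so that levels can be compared between genes.

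The samples were tumor-associated macrophages (TAMs), the macrophages that populate a tumor, isolated from tumors that Hepa1-6 cells (a hepatoma line of the mouse) formed in the liver of C57BL/6 mice. The 3 groups of 5 samples came from control tumors, from tumors whose cancer cells overexpressed miR-144 and from tumors whose cancer cells overexpressed miR-451a. All Hepa1-6 cells for this model had been infected with a lentivirus carrying firefly luciferase. For its tumors in the liver, the study describes a further infection with either a control lentivirus or a miRNA lentivirus. The miRNA was therefore overexpressed in the inoculated cancer cells, while the macrophages that were sequenced are host cells, sorted with antibodies against CD11b and F4/80. The labels describe every sample as untreated and give no age of the mice, and they do not say whether the samples of a group came from separate mice. The study's description of this experiment gives fewer replicates than the 5 samples a group that the labels list, and how those relate to animals is not given in the sources used here. The p-values below then measure only the spread between these samples.

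Cells make cholesterol from acetyl-CoA through mevalonate, farnesyl diphosphate, squalene and lanosterol, and make fatty acids from acetyl-CoA through malonyl-CoA. Both paths are driven by the SREBP transcription factors, products of Srebf1 and Srebf2, which are held in the endoplasmic reticulum by the escort protein Scap and the INSIG proteins while sterols are plentiful. When sterols run low, Scap carries SREBP to the Golgi for cleavage, and the released factor turns on the genes of the path, together with NF-Y and Sp1 at many of their promoters. In macrophages these genes are known to be shifted by sterol load and by inflammatory signals.

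The promoters are shown first because many genes of this list, though not all, are known as shared targets of 1 family of factors. RefSeq windows of 250 bases before to 50 after the annotated start were matched to 27 of the 34 genes (36 windows in all, build GRCm38.p6). Fdps, Fdft1, Sqle, Stard4, Scd1, Scd2 and Fads1 were not matched. The windows were searched on both strands for CCAAT (the NF-Y box), GGGCGG (the Sp1 box), CACGTG (an E-box) and TCACNCCAC (the core of the sterol regulatory element bound by SREBP), where N is any base. The lines below give the last 150 bases before the start site for Hmgcs1, which holds the only match to the last motif, and for the other 6 matched genes with the largest falls in the miR-144 comparison, 5′ to 3′ on the strand of the gene. Dhcr7 has 3 windows, and the one with the most matches is printed. Capitals mark matches to any of these 4 motifs on either strand.
Hmgcs1: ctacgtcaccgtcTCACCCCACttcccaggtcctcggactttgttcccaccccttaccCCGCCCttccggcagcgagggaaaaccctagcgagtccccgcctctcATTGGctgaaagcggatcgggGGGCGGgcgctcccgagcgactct
Dhcr7: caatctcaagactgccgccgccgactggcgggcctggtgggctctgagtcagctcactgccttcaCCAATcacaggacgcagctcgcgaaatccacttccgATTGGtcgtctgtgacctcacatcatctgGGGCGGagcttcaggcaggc
Mvd: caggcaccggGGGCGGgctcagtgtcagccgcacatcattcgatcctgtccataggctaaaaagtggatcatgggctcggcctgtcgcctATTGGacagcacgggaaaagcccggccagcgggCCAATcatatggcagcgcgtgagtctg
Lss: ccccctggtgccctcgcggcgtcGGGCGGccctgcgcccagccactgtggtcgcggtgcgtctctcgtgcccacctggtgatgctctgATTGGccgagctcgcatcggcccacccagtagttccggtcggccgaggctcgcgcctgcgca
Cyp51: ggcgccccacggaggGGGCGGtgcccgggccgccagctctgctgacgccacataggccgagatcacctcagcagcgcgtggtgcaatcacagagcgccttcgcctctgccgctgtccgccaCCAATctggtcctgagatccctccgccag
Fads2: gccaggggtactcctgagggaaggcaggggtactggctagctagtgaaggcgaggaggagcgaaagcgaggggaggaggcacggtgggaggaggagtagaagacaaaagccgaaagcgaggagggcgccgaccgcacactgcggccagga
Sc5d: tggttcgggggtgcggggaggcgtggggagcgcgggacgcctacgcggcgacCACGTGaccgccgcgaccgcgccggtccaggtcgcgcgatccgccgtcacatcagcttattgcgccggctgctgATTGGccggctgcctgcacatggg

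The Hmgcs1 window is chr13:119690201-119690350 (plus strand), with the sterol regulatory element core beginning 137 bases before the start site. The other windows are chr7:143830064-143830213 (plus strand) for Dhcr7, chr8:122443423-122443572 (minus strand) for Mvd, chr10:76531455-76531604 (plus strand) for Lss, chr5:4104698-4104847 (minus strand) for Cyp51, chr19:10101504-10101653 (minus strand) for Fads2 and chr9:42264301-42264450 (minus strand) for Sc5d. Dhcr7 and Mvd each hold 2 NF-Y boxes here, while Hmgcs1, Lss, Cyp51 and Sc5d hold 1 each. The printed stretch of Fads2, which makes polyunsaturated fatty acids, holds no match to any of the 4 motifs. Over the whole windows, an NF-Y box was present in 22 of the 27 matched genes (81.5%), against 41.1% of all 27025 genes with a window and 42.9% of the 8097 tested genes with one. Acat2, Scap, Acaca, Elovl6 and Fads2 had none. The Sp1 box was also present in 22 of 27 (81.5%), against 69.9% of tested genes, and the E-box in 6 of 27 (22.2%), against 12.3%. The sterol regulatory element core was present in 1 of 27, Hmgcs1 (3.70%), against 1.36% of tested genes. Of the 46 NF-Y boxes, 42 lay before the start site. These 42 had a median position of -61, and 29 of them began within 100 bases of the start site. Only 1 pair of matches to different motifs overlapped. These shares describe letters in a window and do not show that a factor binds there.

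**Figure D1:**
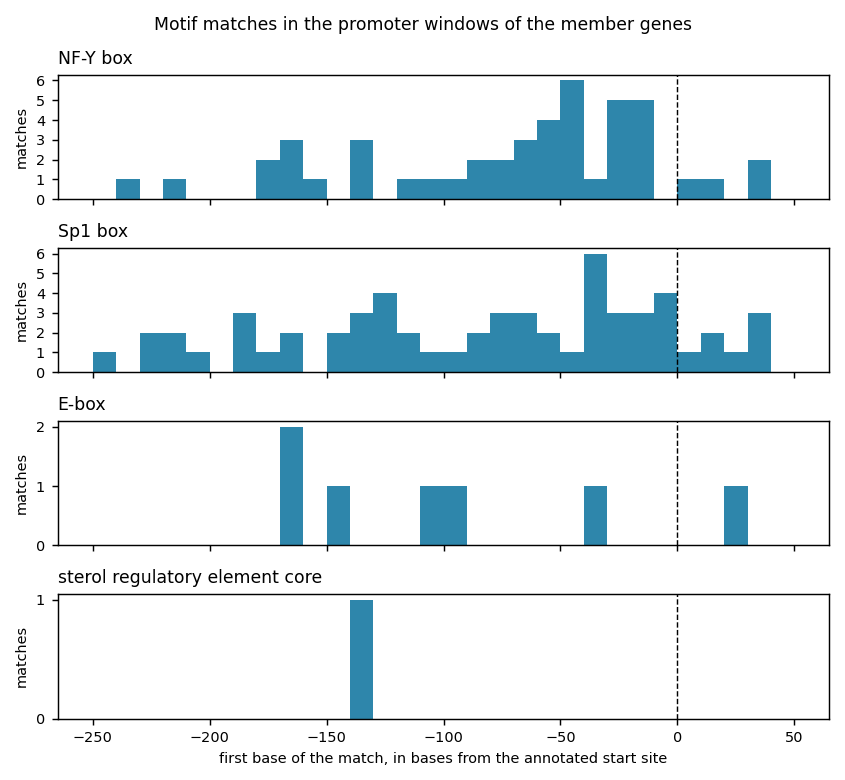
Number of matches to each motif (y axis) by the position of their first base relative to the annotated start site (x axis, bases, dashed line at the start site) in the 36 promoter windows of 27 genes. Of 46 NF-Y boxes, 42 lie before the start site, and the sterol regulatory element core has 1 match.

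Nearly the whole list was lower in TAMs of both miRNA groups. With miR-144, 31 of the 34 genes fell, 2 rose (Scap and Elovl6, the latter with a sign that turned under quantile normalization) and Fads1 did not pass the test. With miR-451a, 31 fell, 1 rose (Scap), and Elovl6 and Fads1 did not pass. A gene is counted here where limma on log2(FPKM + 1) gave an adjusted p under 0.05 (Benjamini-Hochberg over all 11419 genes). Of all tested genes, 20.1% were called lower and 47.1% higher with miR-144, and 20.3% lower and 48.1% higher with miR-451a as deposited. That balance of all calls rests on the scaling: after median centring, 3511 genes were called lower and 3512 higher with miR-144, and 3636 lower and 3577 higher with miR-451a.

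In addition, a log2 fold change of -1 or less was reached by 13 of the 34 genes for miR-144 and by 17 for miR-451a, where 3.16% and 3.34% of all tested genes reached it. Every miRNA sample lay below every control sample for 29 genes in the miR-144 comparison and for 31 in the miR-451a comparison, which held for 16.0% and 16.4% of all tested genes. The median log2 fold change over the list was -0.72 for miR-144 and -0.83 for miR-451a, beside medians of 0.13 and 0.14 over all tested genes. After median centring of the samples, which removes that shift of all genes, the medians of the list were -0.86 and -0.98. Both comparisons use the same 5 control samples and are not independent of each other.

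**Figure D2:**
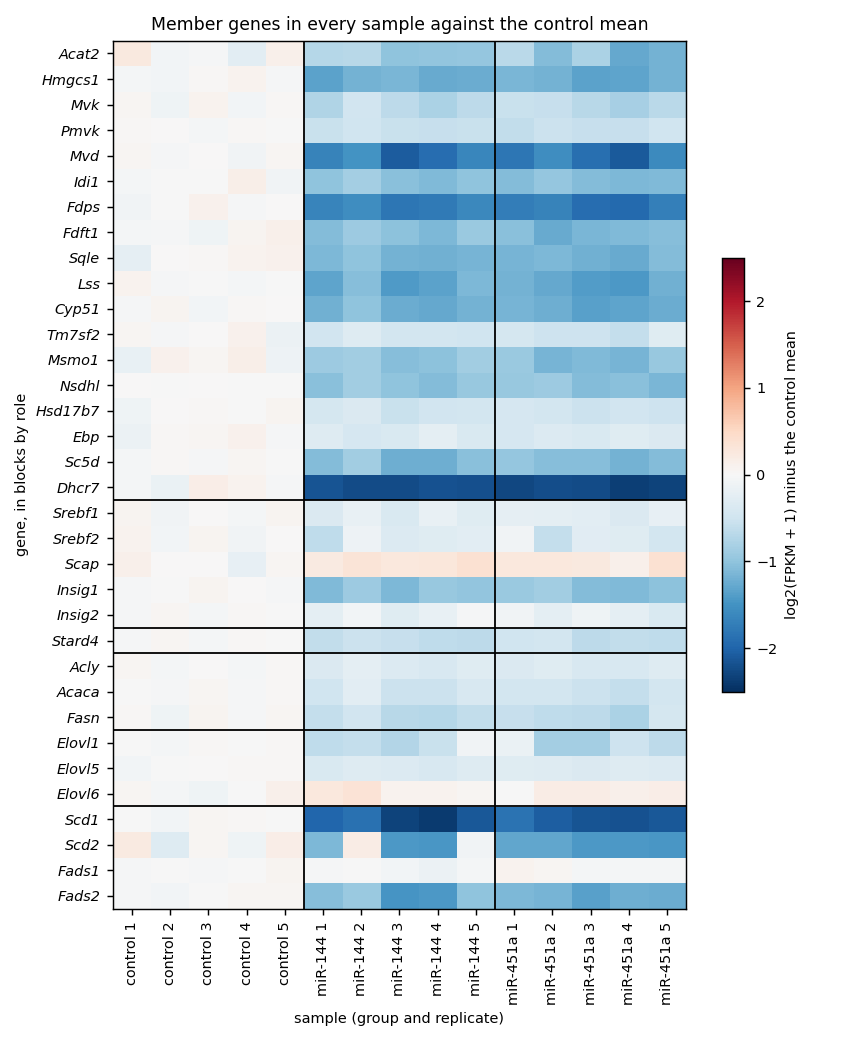
Each row is a gene of the list, in blocks by role, and each column is 1 of the 15 samples. The color is log2(FPKM + 1) minus the mean of the 5 control samples; blue is lower, and the darkest rows are Dhcr7, Scd1, Mvd and Fdps, with Scd2 near the control level in miR-144 replicates 2 and 5 and Scap and Elovl6 on the red side, as deposited.

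Depth, read from the steps of low values and approximate, was 24.3 to 28.5 M fragments in control samples, 17.99 to 27.2 M for miR-144 and 16.03 to 31.3 M for miR-451a. Values of the 34 genes ran from 1.05 to 77.4 FPKM, all above 0.157 FPKM. That is the highest level that 3 fragments give for any of them over its longest transcript, and a shorter transcript would raise it. All 10 rows of the 9 macrophage markers were above 1 FPKM in at least 1 sample. Of the 8 hepatocyte and hepatoma markers, 7 were listed at 0 in all 15 samples, and the summed level of the list reached 0.253 FPKM. Each of the 5 T cell, 5 neutrophil and 4 dendritic cell markers stayed under 1 FPKM in every sample.

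Markers of macrophages and of other cells moved with the groups. The summed FPKM of the macrophage markers was 10254 to 11157 in control samples, 18206 to 19793 for miR-144 and 18052 to 18938 for miR-451a. Of their 10 rows, 8 were called higher and 1 lower (limma) in each comparison as deposited. Adgre1 (F4/80, used in the sort) rose from a mean of 137 FPKM to 361 and 354 FPKM and the Fc receptor gene Fcgr1 from 18.01 to 122 and 118 FPKM, while Cd68 fell from 1444 to 919 and 910.4 FPKM. The summed FPKM of 4 endothelial markers was 44.9 to 49.3 in control samples, 10.2 to 12.3 for miR-144 and 9.45 to 12.9 for miR-451a, and Cdh5 and Pecam1 stayed under 1 FPKM. That fall was in Vwf, with means of 43.5, 7.10 and 6.94 FPKM in the 3 groups, whereas Kdr had means of 2.80, 3.85 and 4.07 FPKM. The sum of 5 fibroblast markers, led by Col1a1, was 106 to 131 FPKM in control samples, 141 to 209 for miR-144 and 180 to 231 for miR-451a. Of these 5, 3 were called higher and 2 were not called with miR-144, and all 5 were called higher with miR-451a (limma, as deposited). The 4 B cell markers summed to 0.138 to 0.375 FPKM, 1.11 to 1.45 FPKM and 1.17 to 1.73 FPKM, and the 4 proliferation markers to 12.2 to 13.8, 9.72 to 11.9 and 10.8 to 14.4 FPKM in the same order. Within the latter, Mki67 and Ccnb1 fell in both comparisons (log2 fold changes -0.44 and -0.32 for Mki67 and -0.41 and -0.24 for Ccnb1), while Top2a and Cdk1 were higher as deposited (0.18 and 0.26 for Top2a and 0.29 and 0.38 for Cdk1), but Top2a did not pass after median centring (limma, adjusted p = 0.574 and 0.169) or quantile normalization (0.874 and 0.303), nor did Cdk1 with miR-144 after quantile normalization (0.1501). Their part in the results was not tested. In these bulk samples, fewer cells with a transcript and less of it per cell cannot be told apart.

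All 18 sterol enzymes fell in both comparisons, and none had a miRNA sample that reached the control range. Their summed level was 354, 359, 370, 370 and 364 FPKM in control replicates 1 to 5, between 146 and 167 FPKM in the 5 miR-144 samples and between 139 and 155 FPKM in the 5 miR-451a samples. The means were 363 ± 7.02 (SD, n = 5), 154 ± 8.69 (SD, n = 5) and 149 ± 7.10 (SD, n = 5). Over the 18 genes, the median log2 fold change was -1.01 for miR-144 and -1.07 for miR-451a.

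Hmgcs1 (HMG-CoA synthase; ENSMUSG00000093930, chromosome 13, 119690379 to 119708260, plus strand, in GENCODE M21 on GRCm38 as for all genes below) condenses acetyl-CoA units on the way to mevalonate. In control samples Hmgcs1 stood at 40.03, 39.6, 42.3, 44.2 and 40.5 FPKM, with miR-144 at 15.7, 17.6, 18.04, 16.6 and 17.01, and with miR-451a at 18.2, 17.6, 15.8, 16.03 and 17.7. The highest miRNA sample was far below the lowest control sample. Its log2 fold changes were -1.23 for miR-144 and -1.23 for miR-451a (SE 0.05 each, limma, adjusted p = 5.25e-12 and 4.95e-12). Acat2, the thiolase that acts just before it, fell from 12.8 ± 1.84 FPKM (SD, n = 5) to 6.54 ± 0.819 FPKM (SD, n = 5) and 5.93 ± 1.25 FPKM (SD, n = 5). Acat2 is uncertain, because Acat3 holds 45.9% of the 50-base stretches of its transcript.

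Mvk and Pmvk, the kinases that phosphorylate mevalonate, kept more of their control level than the decarboxylase that follows them. Mvk had 59.1% of its control FPKM for miR-144 and 59.3% for miR-451a, and Pmvk had 66.5% and 65.9%. Mvd (ENSMUSG00000006517, chromosome 8, 122433601 to 122443422, minus strand) removes the carboxyl group to give isopentenyl diphosphate. The FPKM of Mvd was 52.4, 49.5, 51.0, 47.6 and 52.6 in the 5 control samples, 15.2, 17.4, 11.2, 12.7 and 15.8 for miR-144 and 13.8, 16.5, 12.9, 11.1 and 16.02 for miR-451a. The groups were far apart, at 28.6% and 27.8% of the control mean. In log2 fold change Mvd stood at -1.75 for miR-144 and -1.79 for miR-451a (SE 0.11 each, limma, adjusted p = 1.94e-09 and 1.48e-09). Idi1, the isomerase of isopentenyl diphosphate, had log2 fold changes of -1.002 and -1.07, and shares 21.3% of its 50-base stretches with other genes.

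Fdps (ENSMUSG00000059743, chromosome 3, 89093588 to 89101959, minus strand) joins these units to farnesyl diphosphate, the branch point to sterols, dolichol and prenylated proteins. For Fdps, the 5 control samples gave 32.6, 34.7, 37.9, 34.1 and 35.1 FPKM, the miR-144 samples 10.3, 11.2, 9.19, 9.56 and 10.7 and the miR-451a samples 9.89, 10.2, 8.55, 8.33 and 10.01. Its miRNA samples sat at about the same level in both groups, and its log2 fold changes were -1.68 for miR-144 and -1.79 for miR-451a (SE 0.06 each, limma, adjusted p = 5.07e-12 and 2.27e-12). The first step committed to sterols is squalene synthase, Fdft1 (ENSMUSG00000021273, chromosome 14, 63145150 to 63179578, minus strand). Fdft1 had 11.02, 11.2, 10.6, 12.2 and 12.6 FPKM in control replicates 1 to 5, 4.88, 5.64, 5.11, 4.73 and 5.59 in the miR-144 replicates and 5.06, 4.24, 4.68, 4.85 and 4.96 in the miR-451a replicates. Every miRNA sample of Fdft1 lay well below the lowest control sample. Fdft1 had log2 fold changes of -1.02 for miR-144 and -1.12 for miR-451a (SE 0.06 each, limma, adjusted p = 5.14e-10 and 1.57e-10). Of the exonic bases of Fdft1, 18.3% overlap Ctsb, which lies on the other strand with mean levels of 3500, 2580 and 2510 FPKM in the 3 groups, and strand was not given in the sources used here, so Fdft1 is uncertain. Fdps and Fdft1 also share 11.7% and 10.9% of their 50-base stretches with other genes.

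Squalene epoxidase, Sqle (ENSMUSG00000022351, chromosome 15, 59315077 to 59331192, plus strand), adds the oxygen from which the sterol ring is closed. In control samples Sqle stood at 13.4, 16.1, 16.4, 16.9 and 17.1 FPKM, with miR-144 at 6.73, 7.44, 6.44, 6.37 and 6.52, and with miR-451a at 6.597, 6.79, 6.37, 6.06 and 6.97. Control replicate 1 was the lowest of its group and still well above the highest miRNA value. Sqle had log2 fold changes of -1.14 for miR-144 and -1.16 for miR-451a (SE 0.06 each, limma, adjusted p = 2.61e-10 and 1.87e-10). Lanosterol synthase, Lss (ENSMUSG00000033105, chromosome 10, 76531588 to 76557138, plus strand), closes the ring. The FPKM of Lss was 10.4, 9.54, 9.596, 9.296 and 9.69 in the 5 control samples, 3.29, 4.14, 3.04, 3.23 and 3.901 for miR-144 and 3.74, 3.39, 3.05, 2.93 and 3.66 for miR-451a. Lss kept 36.2% and 34.5% of its control FPKM, with log2 fold changes of -1.25 for miR-144 and -1.30 for miR-451a (SE 0.07 each, limma, adjusted p = 4.88e-10 and 2.88e-10).

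Cyp51 (ENSMUSG00000001467, chromosome 5, 4081145 to 4104746, minus strand) begins the removal of methyl groups from lanosterol. For Cyp51, the 5 control samples gave 26.8, 28.8, 26.3, 28.1 and 27.6 FPKM, the miR-144 samples 11.4, 13.2, 11.1, 10.8 and 11.6 and the miR-451a samples 11.7, 11.2, 10.2, 10.5 and 11.1. The spread within each Cyp51 group was narrow next to the gap between control and miRNA samples, and the log2 fold changes were -1.18 for miR-144 and -1.26 for miR-451a (SE 0.05 each, limma, adjusted p = 1.51e-11 and 6.54e-12). Msmo1, Nsdhl and Hsd17b7 carry on this demethylation. Msmo1 and Nsdhl had 49.3% and 47.6% of their control FPKM for miR-144 and 45.4% and 46.4% for miR-451a. Hsd17b7 fell to 65.6% and 64.2%. Tm7sf2, a sterol reductase, fell from 2.08 ± 0.207 FPKM (SD, n = 5) to 1.27 ± 0.113 FPKM (SD, n = 5) and 1.23 ± 0.174 FPKM (SD, n = 5), and the levels of Tm7sf2 and Elovl6 were the lowest on the list. Its annotated span overlaps Vps51 on the same strand.

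The last steps of the path ranged from the smallest to the largest fall of the 18 enzymes. Ebp, a sterol isomerase, kept 77.4% and 76.8% of its control FPKM, and its log2 fold changes of -0.35 and -0.36 were the smallest of the enzymes. Sc5d (ENSMUSG00000032018, chromosome 9, 42251595 to 42264256, minus strand), a sterol desaturase, lies between them. Sc5d had 20.01, 21.2, 20.3, 21.6 and 20.6 FPKM in control replicates 1 to 5, 9.27, 10.9, 8.37, 8.36 and 9.52 in the miR-144 replicates and 10.1, 9.44, 9.39, 8.64 and 9.25 in the miR-451a replicates. Its log2 fold changes were -1.09 for miR-144 and -1.07 for miR-451a (SE 0.06 each, limma, adjusted p = 2.71e-10 and 3.01e-10), with no miRNA sample in the control range.

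Dhcr7 (ENSMUSG00000058454, chromosome 7, 143823145 to 143848410, plus strand), the reductase that makes cholesterol from its immediate precursor, had the largest fall of the whole list. In control samples Dhcr7 stood at 28.7, 26.6, 33.5, 31.6 and 29.03 FPKM, with miR-144 at 5.88, 5.56, 5.56, 5.81 and 5.68, and with miR-451a at 5.32, 5.58, 5.51, 5.03 and 5.16. The 10 miRNA samples lay within 1 FPKM of each other, far below the lowest control sample. Dhcr7 kept 19.1% of the control FPKM for miR-144 and 17.8% for miR-451a, a level 5.24 and 5.62 times lower. The log2 fold changes of Dhcr7 were -2.20 for miR-144 and -2.29 for miR-451a (SE 0.05 each, limma, adjusted p = 1.94e-14 and 1.31e-14). No 50-base stretch of its transcript was found in another gene. Over all 24 alternatives its log2 fold change stayed between -2.37 and -2.16 for miR-144 and between -2.46 and -2.24 for miR-451a.

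**Figure D3:**
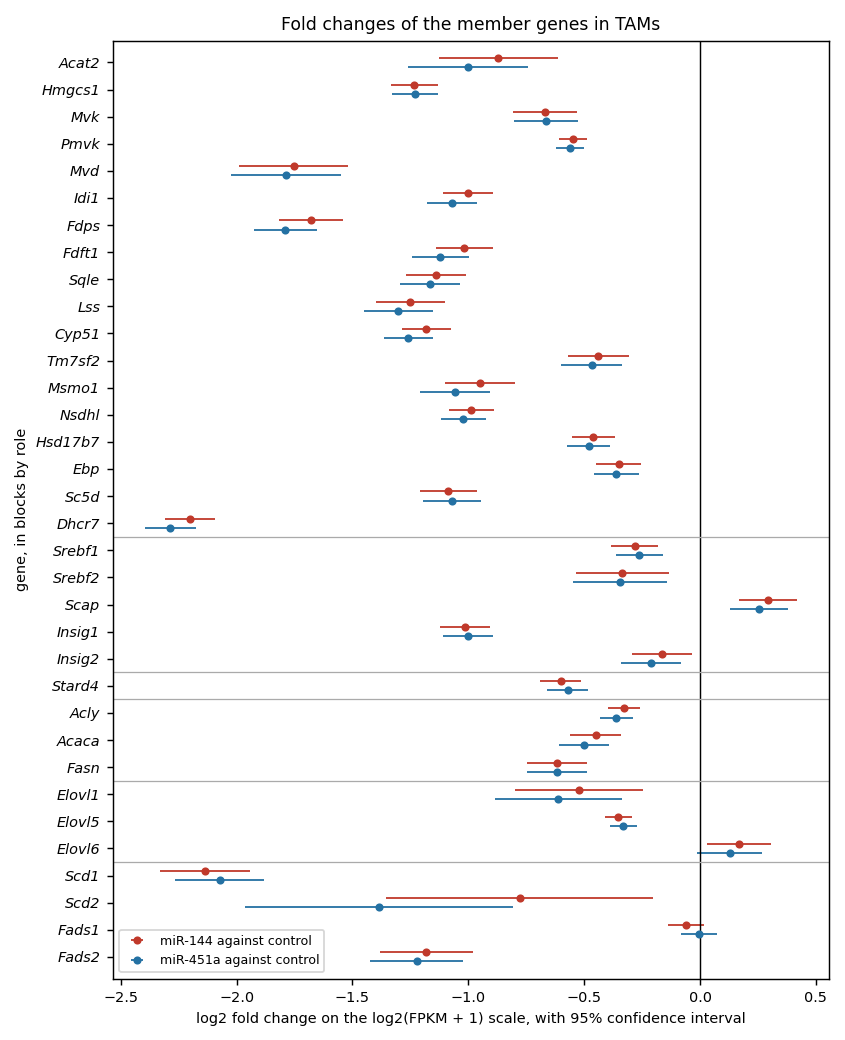
Points are log2 fold changes against control on the log2(FPKM + 1) scale (x axis) with their 95% confidence intervals from limma, for miR-144 in red and miR-451a in blue; genes are in blocks by role on the y axis. Points run from -2.29 for Dhcr7 to 0.29 for Scap, whose rise with miR-451a did not pass after median centring or quantile normalization, and Elovl6 and Fads1 lie near 0 with a sign that depends on the scaling.

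The 5 genes of sterol sensing and transcription did not move as 1 group. Insig1 fell by about as much as the median of the sterol enzymes, Srebf1, Srebf2 and Insig2 fell by much less, and Scap rose. Insig1 (ENSMUSG00000045294, chromosome 5, 28071363 to 28078662, plus strand), an INSIG protein whose gene is itself a target of SREBP, retains Scap in the endoplasmic reticulum. The FPKM of Insig1 was 49.9, 50.7, 52.9, 50.8 and 49.4 in the 5 control samples, 23.1, 26.5, 22.7, 25.8 and 25.1 for miR-144 and 26.2, 27.2, 23.4, 23.2 and 24.6 for miR-451a. Its levels did not overlap between control and miRNA samples, and its log2 fold changes were -1.02 for miR-144 and -1.001 for miR-451a (SE 0.05 each, limma, adjusted p = 1.17e-10 and 1.28e-10).

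Its paralog Insig2, which does the same and is known to depend less on SREBP, had 7.16, 7.58, 7.10, 7.52 and 7.27 FPKM in the control samples, 6.02, 6.93, 5.79, 6.33 and 7.16 for miR-144 and 6.83, 6.001, 6.76, 6.01 and 5.403 for miR-451a. In the miR-144 group, replicate 5 reached the control range. Insig2 had log2 fold changes of -0.16 for miR-144 and -0.21 for miR-451a (SE 0.06 each, limma, adjusted p = 0.0252 and 0.00559). The fall with miR-144 did not pass with TPM (adjusted p = 0.156 from limma), and leaving out control replicate 2 or 4 or miR-144 replicate 1 or 3 took the adjusted p to between 0.0511 and 0.0702. With the replicate number as a block it was 0.0543 (limma, adjusted p). With miR-451a it did not pass with TPM (adjusted p = 0.0551 from limma).

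Scap (ENSMUSG00000032485, chromosome 9, 110333288 to 110384950, plus strand), the escort of SREBP, was the exception in direction. For Scap, the 5 control samples gave 8.65, 7.91, 7.93, 6.67 and 8.15 FPKM, the miR-144 samples 9.29, 10.1, 9.63, 9.71 and 10.5 and the miR-451a samples 9.596, 9.58, 9.42, 8.66 and 10.5. All 10 miRNA samples were above the highest control sample, although miR-451a replicate 4 exceeded it by less than the rounding shown. In log2 fold change Scap stood at 0.29 for miR-144 and 0.25 for miR-451a (SE 0.06 each, limma, adjusted p = 0.0004198 and 0.00127). Relative to the median of all genes the rise was smaller: after median centring it was 0.16 with miR-144 (adjusted p = 0.0316 from limma) and 0.11 with miR-451a, where it no longer passed (adjusted p = 0.123), and after quantile normalization 0.12 with miR-451a (adjusted p = 0.0925).

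Srebf1 and Srebf2, the genes of the SREBP factors, fell to between 78.5% and 82.4% of their control FPKM. Srebf1 fell from 18.02 ± 0.927 FPKM (SD, n = 5) to 14.7 ± 0.982 FPKM (SD, n = 5) and 14.8 ± 0.672 FPKM (SD, n = 5), and Srebf2 from 28.7 ± 1.502 FPKM (SD, n = 5) to 22.7 ± 2.99 FPKM (SD, n = 5) and 22.5 ± 3.06 FPKM (SD, n = 5). The log2 fold changes of Srebf1 were -0.28 and -0.26, and those of Srebf2 -0.34 and -0.35. Srebf2 varied more in the miRNA groups, with miR-144 replicate 1 at 18.04 FPKM and miR-451a replicate 1 at 26.8 FPKM. Stard4, a carrier of cholesterol between membranes and a target of SREBP, had 12.1, 12.9, 11.9, 12.7 and 12.3 FPKM in the control samples, 7.73, 8.26, 8.001, 7.58 and 7.54 for miR-144 and 8.42, 8.79, 7.47, 7.76 and 7.65 for miR-451a. The groups of Stard4 were fully separate, with log2 fold changes of -0.60 for miR-144 and -0.57 for miR-451a (SE 0.04 each, limma, adjusted p = 5.64e-09 and 9.72e-09).

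The 3 genes that make the fatty acid chain fell in both comparisons, by less than the median of the sterol enzymes. Acly, which splits citrate to acetyl-CoA, kept 79.3% and 77.4% of its control FPKM. Acaca, the carboxylase that makes malonyl-CoA, kept 69.2% and 66.1%, but 52.6% of its 50-base stretches also occur in the entry Gm5182, so that its value is uncertain. Fasn (ENSMUSG00000025153, chromosome 11, 120805846 to 120824547, minus strand), the fatty acid synthase, had 22.6, 20.6, 23.3, 21.6 and 22.98 FPKM in the control samples, 14.3, 15.6, 13.4, 13.1 and 14.1 for miR-144 and 14.5, 14.02, 13.7, 12.3 and 16.1 for miR-451a. All 10 miRNA samples of Fasn lay under the 5 control samples, and its log2 fold changes were -0.62 for miR-144 and -0.62 for miR-451a (SE 0.06 each, limma, adjusted p = 3.27e-07 and 3.11e-07).

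The elongases split. Elovl5, which lengthens polyunsaturated chains, fell from 22.5 ± 0.674 FPKM (SD, n = 5) to 17.4 ± 0.401 FPKM (SD, n = 5) and 17.7 ± 0.357 FPKM (SD, n = 5), log2 changes of -0.35 and -0.33. Elovl1 (ENSMUSG00000006390, chromosome 4, 118428093 to 118432953, plus strand), which lengthens saturated very long chains, had 1 high sample in each miRNA group. Elovl1 had 34.9, 34.04, 35.95, 34.8 and 35.9 FPKM in control replicates 1 to 5, 22.2, 22.7, 20.7, 23.6 and 33.2 in the miR-144 replicates and 30.99, 18.9, 19.1, 24.1 and 21.8 in the miR-451a replicates. The high samples were miR-144 replicate 5 and miR-451a replicate 1, both still below the lowest control sample. Elovl1 had log2 fold changes of -0.52 for miR-144 and -0.61 for miR-451a (SE 0.13 each, limma, adjusted p = 0.002198 and 0.000616).

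Elovl6, which takes saturated chains from palmitate to stearate, was expressed at a low level, 1.44, 1.28, 1.21, 1.35 and 1.57 FPKM in the control samples, 1.85, 1.997, 1.52, 1.52 and 1.45 for miR-144 and 1.34, 1.705, 1.68, 1.57 and 1.64 for miR-451a. The groups overlapped in both comparisons. Its log2 fold changes were 0.17 for miR-144 and 0.13 for miR-451a (SE 0.06 each, limma, adjusted p = 0.0311 and 0.0951), so that only the first passed. That call was lost without control replicate 2, 3 or 4 or miR-144 replicate 1 or 2 (adjusted p from 0.0537 to 0.0880 in limma), with the replicate number as a block (adjusted p = 0.0526) and after median centring, where the value was 0.04 (adjusted p = 0.651). Quantile normalization turned the sign for both miRNAs, to -0.00454 and -0.06, and median centring turned it for miR-451a, to -0.02, while TPM gave 0.25 with miR-451a, which passed (adjusted p = 0.0225), as did leaving out miR-451a replicate 1 (adjusted p = 0.0386).

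**Figure D4:**
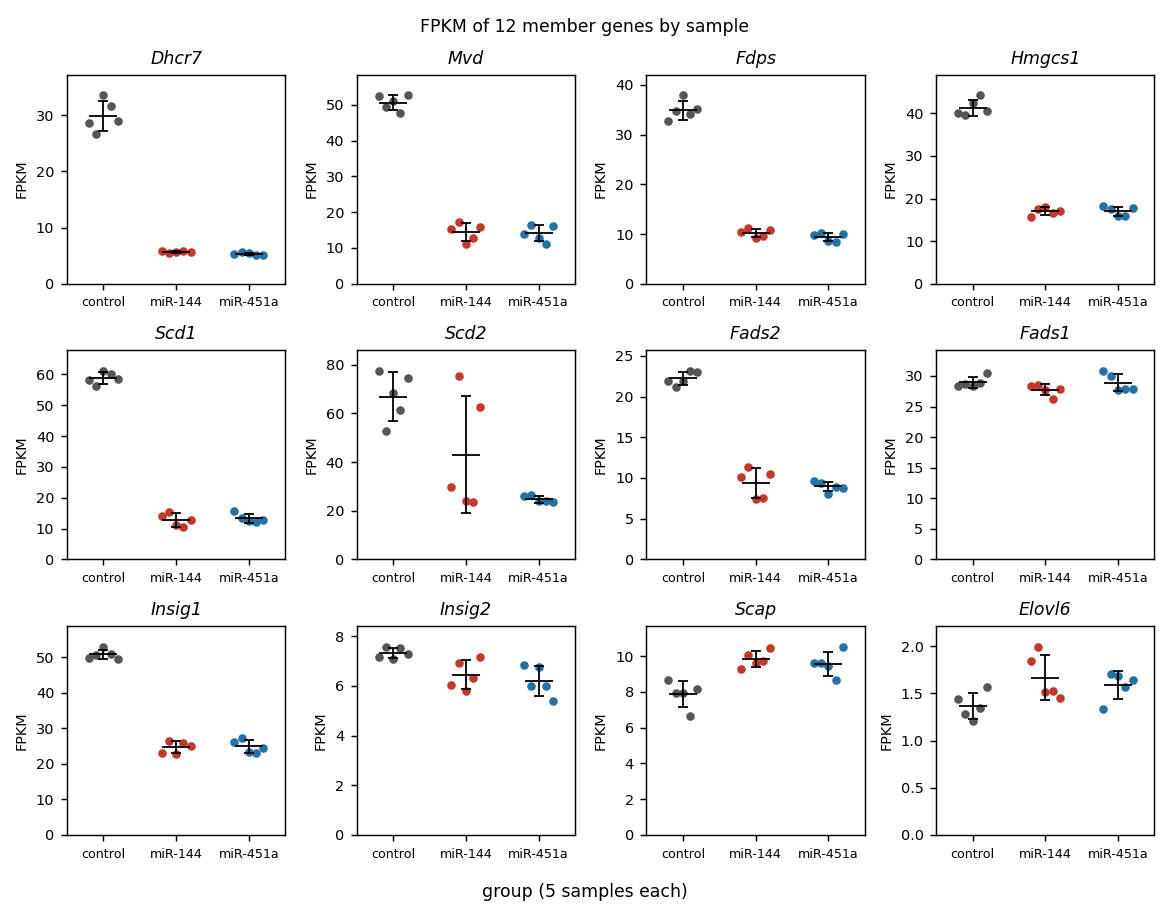
FPKM (y axis, from 0) of 12 genes in each of the 15 samples, by group (x axis); points are samples, and bars are the mean ± SD of 5 samples. Dhcr7, Mvd, Fdps, Hmgcs1, Scd1, Fads2 and Insig1 leave a gap between control and miRNA samples, Scd2 has 2 of 5 miR-144 samples at 62.6 and 75.2, Fads1 does not separate, and Scap and Elovl6 are the genes called higher as deposited, calls that depend on the scaling with miR-451a and with miR-144, respectively.

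Desaturases place double bonds in fatty acids, and the 4 of the list differed widely in their change. Scd1 (ENSMUSG00000037071, chromosome 19, 44394455 to 44407879, minus strand) makes monounsaturated from saturated chains and is a classic target of SREBP and of the liver X receptors. In control samples Scd1 stood at 58.2, 56.4, 61.1, 60.2 and 58.5 FPKM, with miR-144 at 14.1, 15.5, 11.01, 10.4 and 12.7, and with miR-451a at 15.6, 13.4, 12.3, 12.2 and 12.8. Its control and miRNA samples did not approach each other, and Scd1 kept 21.6% of its control FPKM for miR-144 and 22.5% for miR-451a. The log2 fold changes of Scd1 were -2.14 for miR-144 and -2.07 for miR-451a (SE 0.09 each, limma, adjusted p = 1.66e-11 and 2.21e-11). Its range over all 24 alternatives was -2.27 to -2.07 for miR-144 and -2.22 to -2.05 for miR-451a.

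Scd2 (ENSMUSG00000025203, chromosome 19, 44293674 to 44306864, plus strand), a paralog with the same activity, was the highest gene of the list in control TAMs. The FPKM of Scd2 was 77.4, 52.7, 68.2, 61.4 and 74.5 in the 5 control samples, 29.95, 75.2, 24.0, 23.6 and 62.6 for miR-144 and 26.2, 26.3, 23.96, 23.9 and 23.4 for miR-451a. With miR-451a all 5 samples lay together below the control range, whereas with miR-144 replicates 1, 3 and 4 lay at that lower level and replicates 2 and 5 within the control range. In log2 fold change Scd2 stood at -0.78 for miR-144 and -1.39 for miR-451a (SE 0.27 each, limma, adjusted p = 0.01904 and 0.0003201). The fall with miR-144 did not pass without miR-144 replicate 3 (log2 fold change -0.62, adjusted p = 0.0552 in limma) or without replicate 4 (-0.61, adjusted p = 0.0547). Of the 50-base stretches of Scd2, 4.01% occur in other genes, 2.68% in Scd1, and no other gene overlaps it but the miRNA gene Mir5114. The cause of the split between the miR-144 samples was not tested.

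Fads1 and Fads2, the desaturases of polyunsaturated fatty acids, lie close together on chromosome 19. Fads2 (ENSMUSG00000024665, chromosome 19, 10062765 to 10101746, minus strand) fell in both comparisons. For Fads2, the 5 control samples gave 21.9, 21.2, 21.95, 23.1 and 23.01 FPKM, the miR-144 samples 10.2, 11.3, 7.37, 7.54 and 10.5 and the miR-451a samples 9.63, 9.36, 8.07, 8.94 and 8.796. No miRNA sample of Fads2 came near the control range, and its log2 fold changes were -1.18 for miR-144 and -1.22 for miR-451a (SE 0.09 each, limma, adjusted p = 2.96e-08 and 1.86e-08). Fads1, in contrast, had 28.3, 28.7, 28.3, 28.9 and 30.6 FPKM in the control samples, 28.4, 28.6, 27.7, 26.2 and 27.8 for miR-144 and 30.8, 29.9, 27.8, 27.9 and 27.9 for miR-451a. Its groups overlapped, and its log2 fold changes were -0.06 for miR-144 and -0.00501 for miR-451a (SE 0.04 each, limma, adjusted p = 0.159 and 0.909), with 95% confidence intervals of -0.14 to 0.02 and -0.08 to 0.07. Against the median of all genes Fads1 was lower, and it passed after median centring (log2 fold changes -0.19 and -0.15, adjusted p = 8.31e-05 and 0.000795 in limma) and with miR-144 after quantile normalization (-0.10, adjusted p = 0.0224), while TPM turned its sign to 0.00897 and 0.08, without passing.

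Ratios of related genes within a sample do not depend on how the sample was scaled. They were tested for 4 pairs in 3 comparisons with two-sided exact permutation tests over 252 splits, whose smallest p is 0.00794, adjusted over the 12 tests. The ratio of Scd2 to Scd1 was 1.33, 0.935, 1.12, 1.02 and 1.27 in the control samples, 2.12, 4.85, 2.18, 2.28 and 4.91 for miR-144 and 1.68, 1.96, 1.94, 1.95 and 1.83 for miR-451a. All miR-144 samples were above all miR-451a samples, and these above all control samples. Relative to control, the log2 ratio differed by 1.43 (miR-144) and 0.73 (miR-451a), and miR-451a differed from miR-144 by -0.69 (adjusted p = 0.0136 for each, exact permutation test). The last difference did not pass when any of the 5 miR-451a samples was left out (adjusted p from 0.0816 to 0.109, exact permutation test), with differences from -0.71 to -0.65. The groups still did not overlap. With unequal groups, splits that put miR-144 replicates 2 and 5 in the smaller group can differ by more than the real split. The loss of the call therefore does not show that the difference rests on a single miR-451a sample.

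The ratio of Insig1 to Insig2 was 6.96, 6.68, 7.46, 6.76 and 6.81 in the control samples, 3.85, 3.83, 3.92, 4.07 and 3.51 for miR-144 and 3.83, 4.53, 3.45, 3.86 and 4.55 for miR-451a. Its log2 value was -0.86 and -0.78 relative to control (adjusted p = 0.0136 for both, exact permutation test), with no overlap of the groups. The Elovl6 to Elovl5 ratio was small throughout, 0.0534 to 0.0680 in control samples, 0.0821 to 0.113 for miR-144 and 0.0739 to 0.0978 for miR-451a. Its log2 value was higher by 0.65 and 0.56 (adjusted p = 0.0136 for both, exact permutation test), again without overlap. The Srebf1 to Srebf2 ratio, 0.608 to 0.655 in control samples, was 0.595 to 0.766 for miR-144 and 0.572 to 0.802 for miR-451a. Its differences of 0.05 and 0.08 on the log2 scale did not pass (adjusted p = 0.615 and 0.571, exact permutation test), and the miRNA groups enclosed the control range. Between miR-451a and miR-144, the ratios of Insig1 to Insig2, Elovl6 to Elovl5 and Srebf1 to Srebf2 did not pass either (adjusted p from 0.571 to 0.794, exact permutation test).

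**Figure D5:**
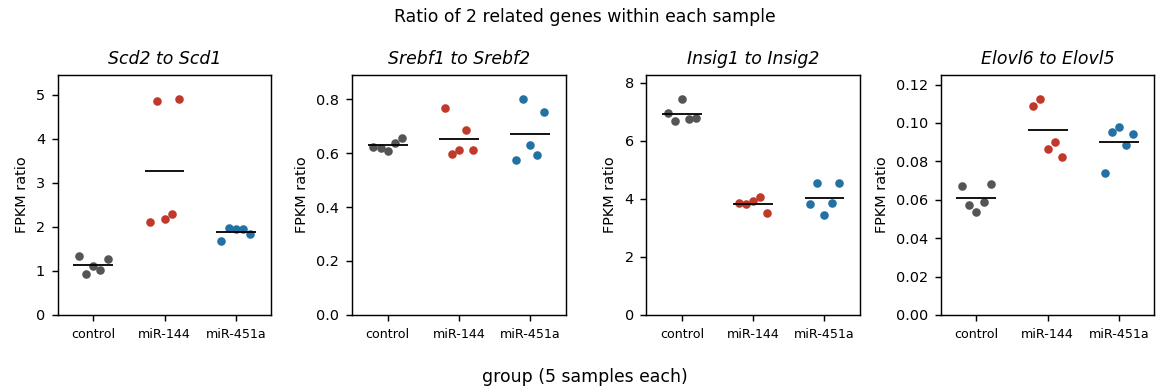
Ratio of the FPKM of 2 genes within each sample (y axis, from 0) by group (x axis) for 4 pairs; points are samples and lines are means of 5. Scd2 to Scd1 is highest in miR-144 replicates 2 and 5 at 4.85 and 4.91, Insig1 to Insig2 is lower and Elovl6 to Elovl5 higher in all miRNA samples than in control, and Srebf1 to Srebf2 overlaps.

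No gene of the list passed the test between the miRNA groups. Between miR-451a and miR-144, 0 of the 34 genes had an adjusted p under 0.05 in limma, as did 0% of all tested genes, and 1 of the 34 had an unadjusted p under 0.05, beside 596 of the 11419 tested genes. That gene was Scd2, lower with miR-451a by a log2 difference of -0.61 (95% confidence interval -1.18 to -0.03, adjusted p = 0.946 in limma). Of the other 33 genes, the log2 differences ran from -0.13 for Acat2 to 0.06 for Scd1. For Dhcr7 the interval of the difference was -0.19 to 0.02, and for Hmgcs1 -0.10 to 0.10.

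In the miRNA groups, though not among the control samples, many members were high or low in the same samples. Replicate 2 of the miR-144 group had the highest value of its group for 26 of the 34 genes (76.5%), where it was the highest for 21.7% of all tested genes. Replicates 4 and 3 were the lowest for 15 and 11 genes, and for 22.25% and 21.25% of all tested genes. In the miR-451a group, replicate 4 was the lowest for 18 of the 34 (52.9%), where it was the lowest for 24.5% of all tested genes, and replicates 1 and 2 were the highest for 16 and 11 genes, and for 24.25% and 21.33% of all tested genes. No control sample was the highest for more than 9 or the lowest for more than 9 of the genes. In approximate depth, miR-144 replicate 2 (17.99 M fragments) was the lowest of its group. In the miR-451a group, replicate 1 (16.03 M) was the lowest and replicate 4 (31.3 M) the highest. By contrast, miR-144 replicates 3 and 4 (23.2 and 22.6 M) and miR-451a replicate 2 (21.6 M) were not depth extremes. The part of depth was not tested. The genes share a library and are not independent of each other, and this order of samples is a description without a test.

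Other genes of the pathway were called lower and higher about as often as genes in general. Of 34 further genes set by name (cleavage and turnover of SREBP, other isoprenoid and sterol enzymes, supply of acetyl-CoA, citrate and NADPH, and other elongation and desaturation enzymes), 24 were tested. With miR-144, 5 fell, 10 rose and 9 did not pass, and with miR-451a 6 fell, 11 rose and 7 did not pass, with median log2 fold changes of 0.09 and 0.15. Over all tested genes the shares were 20.1% lower and 47.1% higher in the first comparison and 20.3% and 48.1% in the second, so the counts of these genes lie near the background and are no result about them. After median centring these counts were 8 lower and 8 higher with miR-144 and 8 lower and 7 higher with miR-451a. The 6 genes with the largest changes included rises and falls. Lbr, the lamin B receptor that has the same sterol reductase activity as Tm7sf2, rose from 3.93 ± 0.331 FPKM (SD, n = 5) to 9.597 ± 0.392 FPKM (SD, n = 5) and 10.5 ± 1.15 FPKM (SD, n = 5). The log2 fold changes of Lbr were 1.10 and 1.22 (limma, adjusted p = 5.08e-10 and 1.49e-10).

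Nr1h3, the gene of liver X receptor alpha, a sensor of oxysterols that induces Srebf1 and Scd1, fell from 18.4 ± 2.09 FPKM (SD, n = 5) to 8.45 ± 0.454 FPKM (SD, n = 5) and 7.46 ± 0.547 FPKM (SD, n = 5). The log2 fold changes of Nr1h3 were -1.03 and -1.19 (limma, adjusted p = 2.87e-09 and 5.07e-10). Rnf145, a ubiquitin ligase known to act on Scap, rose from 5.60 ± 0.274 FPKM (SD, n = 5) to 10.95 ± 0.406 FPKM (SD, n = 5) and 10.98 ± 0.368 FPKM (SD, n = 5). Mid1ip1, an activator of acetyl-CoA carboxylase, rose with log2 fold changes of 1.01 and 0.54, over a wide range of 22.1 to 52.8 FPKM in the miR-144 group. Slc25a1, the mitochondrial citrate carrier, and Nus1, a subunit of the enzyme that makes dolichol, fell with log2 fold changes of -0.52 and -0.62 and of -0.52 and -0.53. These rises and falls all passed in both comparisons as deposited, and the rise of Mid1ip1 with miR-451a did not after median centring (adjusted p = 0.103 in limma) or quantile normalization (adjusted p = 0.0611).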

How the data were processed

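RNA-seq values of sorted TAMs were analysed in 15 samples, 5 for each of 3 groups, grouped and numbered by the sample labels. The authors deposited FPKM per gene and sample, and these values were used as deposited. The submitters' processing notes name FastQC 0.11.2, STAR and StringTie; the genome build, the annotation and strand handling are not given in the sources used here. Positions and overlaps are those of GENCODE M21 and promoters those of RefSeq (GRCm38.p6), matched by identifier or symbol. Shared sequence was counted in 50-base stretches of each member's longest transcript, as the percent also found in transcripts of other genes.

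The members and all gene lists were chosen with earlier results of these data known. Genes described in every sample were the 12 with the largest changes among those called without overlap of the groups, and at least 1 gene of each role; Insig2, Scap, Elovl6 and Fads1 were added to them after their values were seen; up to 6 other pathway genes were named by the size of their change.

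For genes with a single transcript, low values lie on steps of 1 fragment, which gave an approximate depth. Only 31.3% to 54.8% of such values fell on a step (tolerance 0.05 fragments), so whole counts could not be recovered and count models were not used. Intervals and the floor of 3 fragments cover counting or sampling error only.

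limma 3.58.1 in R 4.3.3 was fitted to log2(FPKM + 1) with the 3 groups in 1 model, a trend of variance on level, and p-values adjusted by Benjamini-Hochberg over 11419 genes; fold changes understate those of genes near 1 FPKM. It was tested on simulated data. Within-sample ratios were compared with exact permutation tests, two-sided. Alternatives were a pseudocount of 0.1, no filter, a filter at a mean of 5 FPKM, quantile normalization, median centring, TPM, the replicate block, no trend, a fit over 2 groups, each sample left out, and for ratios a pseudocount of 1. Python 3.11.15, numpy 2.4.6, pandas 2.3.3 and matplotlib 3.10.9 were used.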

Additional observations from a re-analysis of the deposited data

Results flagged for a closer look

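Samples far from the rest of their group were looked for in 102 groups (34 genes in 3 groups of 5), with Dixon's criterion for 5 samples (a gap above 0.71 of the range). Chance flags about 1 in 20 groups, or 5.1 here, and 5 were found. Idi1 had 7.36 FPKM in miR-451a replicate 2, where the nearest sample had 6.67. Sqle had 13.4 FPKM in control replicate 1, where the nearest had 16.1. Tm7sf2 had 1.47 FPKM in miR-144 replicate 2, where the nearest had 1.25. Elovl1 had 33.2 FPKM in miR-144 replicate 5, where the nearest had 23.6, and Fads1 had 30.6 FPKM in control replicate 5, where the nearest had 28.9. The calls of Idi1, Sqle, Tm7sf2 and Elovl1 were kept with any sample left out.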

How the results depend on the processing

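For the 34 genes and their 2 comparisons with control, up to 24 alternatives were run, and 29 genes kept every call and direction. The exceptions were Scap, Insig2, Elovl6, Scd2 and Fads1. The number of genes called lower stayed between 29 and 31 with a sample left out and within 1.5 times of 31 under every other alternative. Genes called higher numbered 1 in place of 2 with miR-144 under no filter, a filter at 5 FPKM, quantile normalization, median centring and the replicate block, and 1 to 2 with a sample left out. With miR-451a they numbered 0 under median centring and quantile normalization and 2 under TPM, in place of 1, and 1 to 2 with a sample left out. Between miR-451a and miR-144, 0 genes were called under every alternative run.

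Scaling moved the balance of all calls: as deposited, the share of calls that were higher was 70.1% for miR-144 and 70.4% for miR-451a, against 50.01% and 49.6% after median centring, 52.3% for both after quantile normalization and 76.5% and 77.3% with TPM. Signs turned for Elovl6 with miR-451a (-0.0175 after median centring and -0.06001 after quantile normalization) and with miR-144 (-0.00454 after quantile normalization). Fads1 turned with TPM (0.00897 and 0.0769) and, with miR-451a, without control replicate 5 or miR-451a replicate 3, 4 or 5 (range with a sample left out -0.02795 to 0.0139).

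The sample numbers gave no consistent pairing of the samples. Between control and miR-144, control and miR-451a, and the miRNA groups, number 4 correlated by 0.108, 0.264 and 0.241. Number 1 correlated by -0.127, 0.155 and -0.15 in the same order. Whether a number marks samples handled together was not tested. Deviations of same-numbered samples correlated by -0.15 to 0.264 over 15 pairs, 8 of them over 0.1, and 4 of 15 samples correlated best with their own number. With the replicate block, the calls of Insig2 (adjusted p = 0.0543 in limma) and Elovl6 (adjusted p = 0.0526) with miR-144 were lost and no other. For the ratios, the paired form was an exact sign-flip test over 5 pairs, whose smallest p of 0.0625 cannot pass. Its differences were those given above: Scd2 to Scd1 1.425, 0.7339 and -0.6909, Insig1 to Insig2 -0.8555 and -0.7848, and Elovl6 to Elovl5 0.6517 and 0.5618 (adjusted p = 0.107 for each, exact test). With a sample left out, the log2 difference of Scd2 to Scd1 between miR-451a and miR-144 ranged from -0.8186 to -0.5158, that of Srebf1 to Srebf2 from -0.008811 to 0.08196 with miR-144 and from -0.03771 to 0.08944 between the miRNA groups. A pseudocount of 1 changed no call of a ratio. Depth is approximate and strand is unknown. Values of Acat2, Acaca, Idi1, Fdps and Fdft1 may include fragments of other genes because of shared sequence. Values of Tm7sf2 and, with strand unknown, of Fdft1 may include them because of an overlapping gene.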
